A study of Homo sapiens with 18 samples.

Results

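The translation initiation factors are the 51 genes of the expression table whose symbols begin with EIF1 to EIF6, without names of pseudogenes, hyphenated names and EIF1AY, and whose mean level reached 1 FPKM (a count of fragments scaled for gene length and library size) over the 9 input libraries. They are 51 of 36576 genes in the table and 51 of the 12224 genes that reached that level. The rule used the level over all libraries and no contrast between groups. The lowest levels inside it were 2.78 FPKM for EIF2S3B, 3.18 for EIF4ENIF1 and 3.35 for EIF4E, and the genes left out were EIF5A2 at 0.930 FPKM and EIF4E3 at 0.516 FPKM.

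The cells were labelled A549, a human lung adenocarcinoma line, and were grown in DMEM/F-12. The control group was untreated, the BPQD group received 10 mg/L BPQD (black phosphorus quantum dots, nanometre-sized particles of phosphorus), and the TiO2 group received 100 mg/L TiO2 (titanium dioxide), both for 24 h. Each group had 3 input libraries, which measured RNA levels, and 3 libraries enriched with an antibody for N6-methyladenosine (m6A), a methyl mark of mRNA. No genetic change is given for any group, and the exposures differed in dose as well as in material. The labels do not say whether the 3 libraries of a group came from separate cultures, and p-values then reflect only the variation among these libraries, which may be technical.

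Initiation brings the ribosome to the start codon of an mRNA. The eIF4F complex, made of the cap-binding eIF4E, the scaffold eIF4G and the helicase eIF4A, loads the mRNA. The small ribosomal subunit scans it with eIF1, eIF1A, the large eIF3 complex, and eIF2, which carries the initiator tRNA. The exchange factor eIF2B recharges eIF2 with GTP, and eIF5 and eIF5B complete the joining of the ribosomal subunits. Cells regulate the process mainly at 2 steps: stress kinases phosphorylate eIF2α and so block eIF2B, and 4E-binding proteins sequester eIF4E until mTORC1 phosphorylates them. These events act on proteins, and the libraries measured only RNA.

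Many mRNAs of the translation machinery begin with a C followed by a run of pyrimidines, a feature known as a terminal oligopyrimidine start, through which mTORC1 regulates their translation. A promoter sequence (RefSeq, GRCh38.p14) was at hand for 42 of the 51 members, and 10 of them had an annotated start with C followed by at least 4 letters that were C or T on the transcribed strand, namely EIF2A, EIF2D, EIF2S3, EIF2S3B, EIF3D, EIF3F, EIF3K, EIF3M, EIF4A2 and EIF4B. The same start was found in 4.07% of all 35116 RefSeq promoters and in 7.54% of the 8525 symbols of tested genes with an entry. The windows shown are the 6 starts whose genes passed a test in at least 1 exposure. Each has 15 bases before the annotated start and 15 from it on, written 5′ to 3′ on the gene's own strand, which is the plus strand in all 6, and capitals mark the pyrimidine run.
EIF2A (chr3:150546772-150546801): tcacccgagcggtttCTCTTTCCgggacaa
EIF2S3 (chrX:24054941-24054970): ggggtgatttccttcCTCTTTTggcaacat
EIF3F (chr11:7987322-7987351): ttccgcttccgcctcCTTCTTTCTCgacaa
EIF3K (chr19:38619173-38619202): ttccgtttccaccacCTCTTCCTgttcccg
EIF3M (chr11:32583816-32583845): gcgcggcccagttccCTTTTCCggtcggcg
EIF4A2 (chr3:186783562-186783591): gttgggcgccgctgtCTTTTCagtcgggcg
The annotated start may differ from the start used in these cells, and a match is a description of the letters only. The changes of these genes are given below with those of the other members.

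Library totals were close, with FPKM sums of 221580 to 222818 in the controls, 212891 to 213976 after BPQD and 219458 to 219676 after TiO2. Over the tested genes, log2 values correlated at 0.9802 to 0.9827 within groups and at 0.9656 to 0.9747 between them. No read counts are given, and library depth is therefore unknown. Of the genes that identify A549, CDKN2A, which is deleted in that line, stood at 19.3 to 27.4 FPKM, while AKR1B10 reached at most 0.998, AKR1C1 1.14 and ALDH1A1 0.116 FPKM, so these markers went against the label and the cells are called here by the label only. The keratins KRT18 (403 to 582 FPKM) and KRT7 (206 to 311 FPKM) were abundant in all 9 libraries. The 7 epithelial markers listed summed to 1158 to 1245 FPKM in the controls, 855 to 875 after BPQD and 956 to 1051 after TiO2. The alveolar type II list of 8 genes summed to 11.5 to 12.2, 9.55 to 9.89 and 7.88 to 8.25 FPKM in the same order, without overlap. Nearly all of it was the lipid transporter ABCA3, called lower after BPQD (-0.24, adjusted p = 0.000339) and after TiO2 (-0.50, adjusted p = 1.78e-05), and the surfactant genes SFTPA1, SFTPA2, SFTPB, SFTPC and SFTPD were at or near 0. The leukocyte list of 6 genes summed to 11.4 to 13.6, 11.9 to 13.1 and 17.8 to 23.2 FPKM in the same order, and the endothelial list of 5 genes to 3.03 to 3.73, 1.22 to 1.38 and 2.16 to 3.92 FPKM, each with 1 gene at 1 FPKM or more. In the leukocyte list that gene was CD68, which made up nearly all of the sum. CD68 had no call after BPQD (0.04, adjusted p = 0.78) and was called higher after TiO2 (0.73, adjusted p = 0.000946). The leukocyte genes PTPRC and LYZ were at or near 0. Fibroblast markers, 8 in all and 4 of them tested, summed to 29.3 to 29.8, 13.9 to 24.8 and 27.9 to 37.7 FPKM. The part of these shifts in the results was not tested. In bulk RNA, a change in which cells are present and a change of RNA per cell cannot be told apart.

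After BPQD, 21 of the 51 initiation factor mRNAs were higher than in the controls and 9 were lower. Of all tested genes, 20.6% were called higher and 23.4% lower, and of those averaging 10 FPKM or more, where most members lie, 27.6% were higher and 28.4% lower. The members' median log2 fold change was 0.07, against -0.01 over all tested genes. The 3 BPQD libraries all lay above the 3 controls for 23 members (26.4% of all tested genes) and all below for 10 (29.2%). Fold changes here and below are differences of log2(FPKM + 1) from limma with their standard errors, p-values are Benjamini-Hochberg adjusted over all 12224 tested genes, and a gene was called at adjusted p under 0.05. The FPKM sums were lower after BPQD, as given above, and with values rescaled to TPM (the same values brought to equal library totals), 23 members were higher and only 3, EIF4EBP1, EIF4EBP2 and EIF6, were lower, with a median of 0.13.

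After TiO2, 17 members were higher and 6 lower, against 17.3% and 20.5% of all tested genes and 26.3% and 24.8% of those with at least 10 FPKM. The median of the members was 0.08 (0.05 without control replicate 1), and that of all tested genes -0.02. All 3 TiO2 libraries lay above the controls for 20 members (23.4% of all tested genes) and below them for 7 (28.3%). Both exposures were compared with the same 3 control libraries, so their calls are not independent. Called higher in both were 14 members: EIF1AX, EIF2S1, EIF2S2, EIF2S3, EIF2B1, EIF2B3, EIF3A, EIF3E, EIF3H, EIF3J, EIF3M, EIF4A2, EIF4G2 and EIF5B. Of all tested genes 9.33% were called higher in both, and of those with at least 10 FPKM 16.5%. EIF4EBP2 and EIF5AL1 were called lower in both (11.7% of all tested genes and 15.8% of those with at least 10 FPKM), and EIF3B and EIF4G1 were called higher after BPQD and lower after TiO2 (1.84% and 2.29%). No call was made in either for 16 members.

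**Figure D1:**
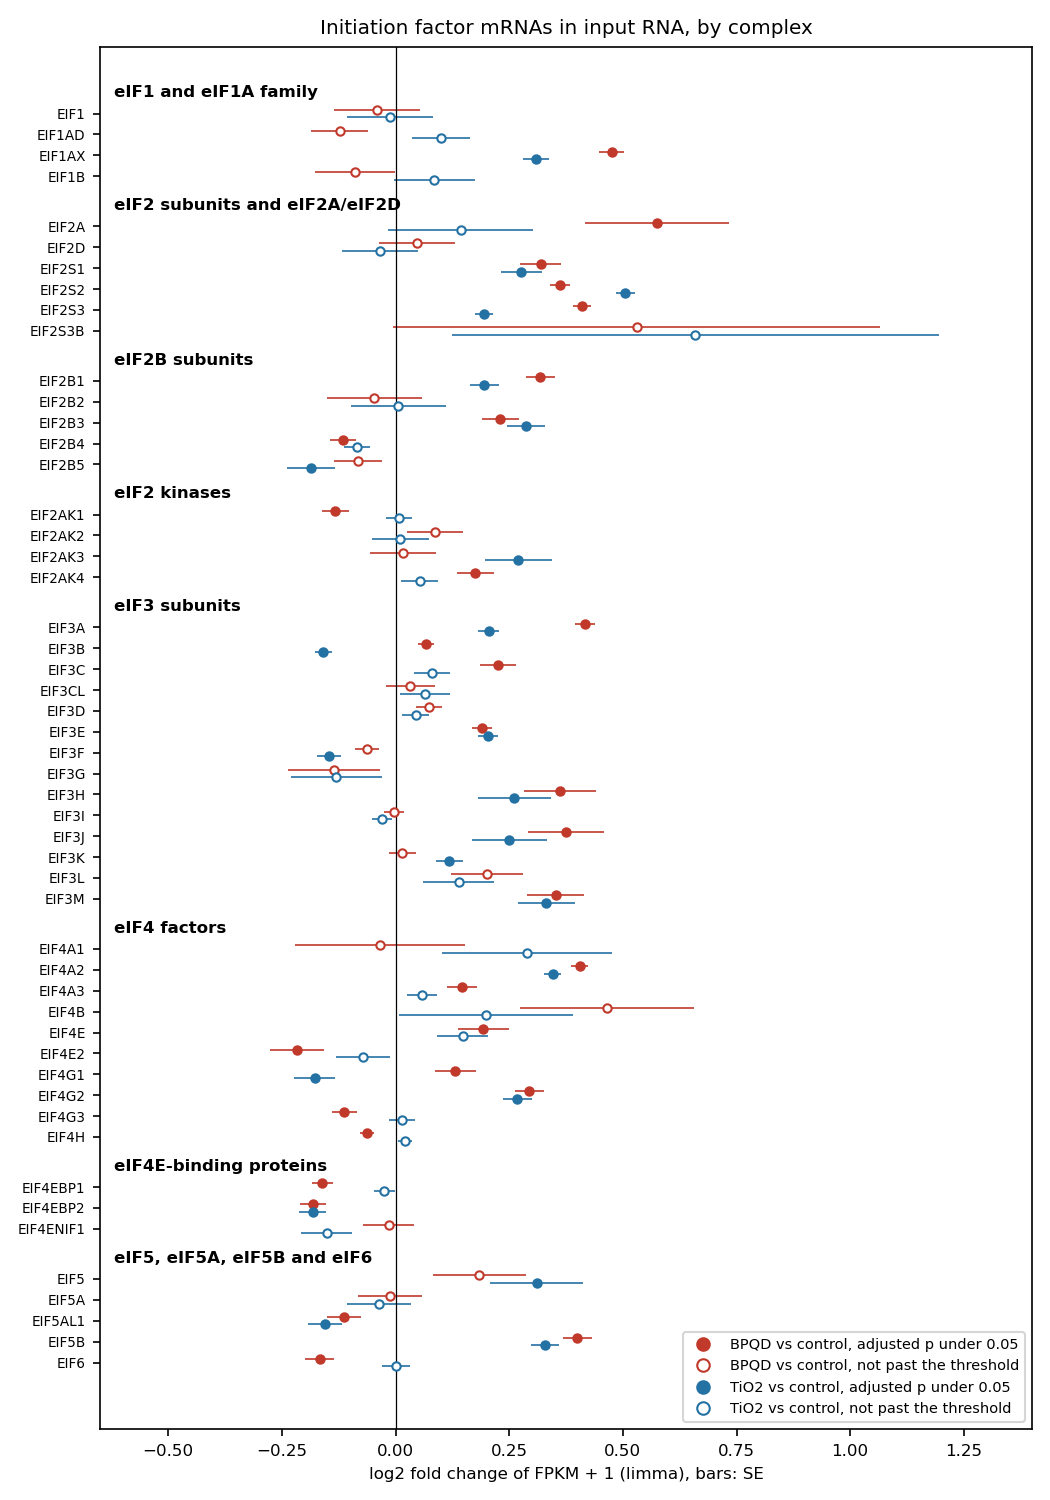
Log2 fold change of FPKM + 1 (horizontal axis) for each of the 51 initiation factors, grouped by complex, in BPQD (red) and TiO2 (blue) against the same 3 control libraries; bars are the standard error and filled points passed adjusted p under 0.05. The eIF2 subunits, EIF1AX and EIF5B sit to the right in both, while EIF3B and EIF4G1 have filled points on opposite sides of 0.

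Of the 4 genes of the eIF1 and eIF1A family, EIF1AX alone was called against control. EIF1AX encodes eIF1A, which with eIF1 holds the scanning ribosome open until a start codon is found. EIF1AX (chrX:20124525-20141838) stood at 25.3, 25 and 25.6 FPKM in the 3 controls, 35.3, 34.8 and 36.7 after BPQD and 30.9, 32.3 and 31.6 after TiO2. The 3 groups did not overlap, with BPQD highest and the controls lowest. The log2 fold change was 0.48 ± 0.03 (adjusted p = 1.77e-05) for BPQD, 0.31 ± 0.03 (adjusted p = 0.000152) for TiO2 and 0.17 ± 0.03 (adjusted p = 0.00252) for BPQD against TiO2. EIF1, the partner that guards start codon choice, stood at 51.8, 68.5 and 53 FPKM in the controls, 56.7, 55.7 and 54.8 after BPQD and 58.2, 56.5 and 55.7 after TiO2, and 1 high control library lay above all others. Its change from control was -0.04 for BPQD and -0.01 for TiO2 (adjusted p = 0.762 and 0.929), and without that library the TiO2 change was 0.11 with adjusted p = 0.0245 (range over the alternatives 0.0245 to 1). EIF1B, its paralog, at 9.07 ± 0.624 FPKM in the controls (SD, n = 3), and EIF1AD, at 13.9 ± 0.0911, passed no test against control. EIF1AD was lower after BPQD than after TiO2 (-0.22 ± 0.06, adjusted p = 0.0272), a call that was lost without BPQD replicate 2 or 3 or TiO2 replicate 1 or 2, with adjusted p of 0.00959 to 0.0853 over all alternatives. The call was also lost on the TPM scale (adjusted p = 0.0554), with no filter on low values and with only the 6 libraries compared.

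The 3 subunits of eIF2, the GTPase that delivers the initiator tRNA, rose after both exposures. EIF2S2, which encodes eIF2β (chr20:34088309-34112243), stood at 94.6, 93.8 and 93.1 FPKM in the controls, 119, 121 and 122 after BPQD and 135, 135 and 130.1 after TiO2. Its groups were separate, with TiO2 highest. RALY, annotated over 20000 bases of EIF2S2 on the opposite strand, stood at 18.5, 26.7 and 18.9 FPKM in the controls, 24.1, 20.5 and 24.7 after BPQD and 22.8, 23.9 and 16.9 after TiO2. The log2 fold change of EIF2S2 was 0.36 ± 0.02 (adjusted p = 1.75e-05) for BPQD, 0.51 ± 0.02 (adjusted p = 5.43e-06) for TiO2, and -0.14 ± 0.02 (adjusted p = 0.00137) for BPQD against TiO2. EIF2S3, which encodes the GTP-binding eIF2γ (chrX:24054946-24078810), had the opposite order of exposures, at 92.4, 93.1 and 92.8 FPKM in the controls, 124, 125 and 122 after BPQD and 106, 108 and 105 after TiO2. Its change was 0.41 ± 0.02 (adjusted p = 8.97e-06) for BPQD, 0.19 ± 0.02 (adjusted p = 0.000269) for TiO2, and 0.22 ± 0.02 (adjusted p = 0.000149) between them. EIF2S1 (chr14:67360328-67386516) encodes eIF2α, the subunit that stress kinases phosphorylate. Its levels were 24.8, 23.8 and 22.3 FPKM in the controls, 30.0, 29.7 and 29.3 after BPQD and 27.4, 29.8 and 29.2 after TiO2, so that both exposures lay above the controls and overlapped each other. The change was 0.32 ± 0.05 (adjusted p = 0.000964) for BPQD and 0.28 ± 0.05 (adjusted p = 0.00246) for TiO2.

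EIF2A (chr3:150546678-150586016), which encodes a separate protein able to bind initiator tRNA and is not an eIF2 subunit, had the largest called rise of any member after BPQD. It stood at 9.77, 13.8 and 14.5 FPKM in the controls, 19.5, 18.4 and 19.6 after BPQD and 12.6, 17.1 and 12.6 after TiO2. All BPQD libraries lay above all others, and 1 low control widened the spread. The change was 0.58 ± 0.16 (adjusted p = 0.0209) for BPQD and 0.14 ± 0.16 (adjusted p = 0.522) for TiO2. Without BPQD replicate 1 or 3 the adjusted p was 0.0573 or 0.0576 (range over all alternatives 0.0132 to 0.0576), and the call was lost. The table's interval for SERP1 on the opposite strand covers the whole of EIF2A, and SERP1 stood at 19.8, 18.2 and 18.8 FPKM in the controls, 20.2, 19.5 and 19.6 after BPQD and 14.8, 22.2 and 15 after TiO2. Whether counting used the strand is not given in the sources used here. EIF2D, which acts in an alternative route of tRNA delivery, was at 8.38 ± 0.602, 8.68 ± 0.144 and 8.19 ± 1.03 FPKM (SD, n = 3) in controls, BPQD and TiO2 and passed no test. EIF2S3B, a near-identical copy of EIF2S3, stood at 0.0811, 3.9 and 2.47 FPKM in the controls, 3.36, 3.37 and 1.91 after BPQD and 1.99, 3.32 and 4.61 after TiO2, and its groups overlapped. The sum of EIF2S3 and EIF2S3B was 92.5, 97.1 and 95.3 FPKM in the controls, 128, 129 and 123 after BPQD and 108, 112 and 109 after TiO2, so the order of the groups was that of EIF2S3.

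The 5 subunits of eIF2B, the exchange factor that reactivates eIF2, moved in both directions: EIF2B1 and EIF2B3 rose after both exposures, EIF2B4 fell after BPQD and EIF2B5 fell after TiO2. EIF2B1 (α subunit, chr12:123620406-123633766) stood at 26.2, 26.5 and 27.6 FPKM in the controls, 34.2, 32.7 and 34 after BPQD and 30.6, 30.1 and 31.7 after TiO2. The groups did not overlap. Its change was 0.32 ± 0.03 (adjusted p = 0.000178) for BPQD and 0.20 ± 0.03 (adjusted p = 0.0024) for TiO2. EIF2B3 (γ subunit) stood at 7.51, 7.74 and 7.04 FPKM in the controls, 8.46, 9.14 and 9.07 after BPQD and 9.29, 9.42 and 9.12 after TiO2, with changes of 0.23 ± 0.04 (adjusted p = 0.00309) and 0.29 ± 0.04 (adjusted p = 0.00142). EIF2B4 (δ subunit) fell from 5.91, 6 and 6.1 FPKM in the controls to 5.32, 5.57 and 5.49 after BPQD, and its TiO2 libraries, at 5.5, 5.63 and 5.68, also lay below the controls. The change was -0.12 ± 0.03 (adjusted p = 0.0128) for BPQD and -0.08 ± 0.03 (adjusted p = 0.0512) for TiO2, so that only the first passed the threshold. On the TPM scale the BPQD change was -0.08 with adjusted p = 0.0868. EIF2B5, the catalytic ε subunit, stood at 10.3, 9.87 and 10.9 FPKM in the controls, 9.85, 10.1 and 9.2 after BPQD and 8.91, 8.53 and 9.5 after TiO2. Its change was -0.19 ± 0.05 (adjusted p = 0.0267) for TiO2, a call lost without control replicate 1 or 3 or TiO2 replicate 1 or 2, with adjusted p of 0.0216 to 0.084 over all alternatives. EIF2B2 (β subunit) passed no test, at 7.23 ± 0.747, 6.97 ± 0.724 and 7.28 ± 0.929 FPKM (SD, n = 3) in controls, BPQD and TiO2.

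Of the 4 kinases that phosphorylate eIF2α, EIF2AK1 fell and EIF2AK4 rose after BPQD, EIF2AK3 rose after TiO2, and EIF2AK2 passed no test. EIF2AK1 (HRI, activated by heme shortage and mitochondrial stress) stood at 48.5, 50.7 and 49.4 FPKM in the controls, 45.7, 44.8 and 44.8 after BPQD and 51.7, 49.3 and 48.4 after TiO2. It was lower after BPQD than in either other group, with a change of -0.13 ± 0.03 (adjusted p = 0.00806) against control and -0.14 ± 0.03 (adjusted p = 0.00732) against TiO2, and the first of these was -0.08 with adjusted p = 0.0738 on the TPM scale. EIF2AK4 (GCN2, the sensor of uncharged tRNA) stood at 5.84, 6.31 and 5.79 FPKM in the controls, 6.81, 7.04 and 6.79 after BPQD and 6.28, 6.48 and 5.98 after TiO2. It was higher after BPQD than in the controls (0.18 ± 0.04, adjusted p = 0.00979). EIF2AK3 (PERK, the kinase of the endoplasmic reticulum) was higher after TiO2, with 3.71, 3.61 and 3.02 FPKM in the controls, 3.25, 3.76 and 3.47 after BPQD and 4.6, 4.37 and 4.08 after TiO2. Its TiO2 change was 0.27 ± 0.07 (adjusted p = 0.0231), and the call was lost without control replicate 3 or TiO2 replicate 1 or 2, with adjusted p of 0.0164 to 0.0724 over all alternatives. EIF2AK2 (PKR, activated by double-stranded RNA) stood at 10.6, 10.6 and 8.92 FPKM in the controls, 10.8, 10.8 and 10.5 after BPQD and 9.78, 10.4 and 10.1 after TiO2. It passed no test, with changes of 0.09 and 0.01 (adjusted p = 0.299 and 0.909).

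The eIF3 complex, the scaffold that binds the small ribosomal subunit and keeps other factors on it, was represented by 14 genes. After BPQD limma called 7 higher and 0 lower (1 lower, EIF3F, at an unadjusted p under 0.05), and after TiO2 6 higher and 2 lower. Of all tested genes 20.6% were higher and 23.4% lower after BPQD, and 17.3% and 20.5% after TiO2. With at least 10 FPKM these shares were 27.6% and 28.4%, and 26.3% and 24.8%. The mean levels of the 14 genes ranged from about that of EIF3F, 10.1 FPKM, to that of EIF3I, 147 FPKM. EIF3A, the largest subunit (chr10:119033670-119080823), stood at 69.5, 69.3 and 70.3 FPKM in the controls, 94.5, 93.1 and 92.2 after BPQD and 82, 81.2 and 78.2 after TiO2. The groups were separate, with BPQD highest. Its change was 0.42 ± 0.02 (adjusted p = 1.34e-05) for BPQD, 0.20 ± 0.02 (adjusted p = 0.000374) for TiO2 and 0.21 ± 0.02 (adjusted p = 0.000301) between the exposures. EIF3B, a subunit that binds EIF3A (chr7:2354086-2380745), stood at 39.8, 40.2 and 40.4 FPKM in the controls, 41.9, 42 and 42.4 after BPQD and 36.2, 36 and 35.3 after TiO2. The 3 groups did not overlap, but here the TiO2 libraries were the lowest. The change was 0.07 ± 0.02 (adjusted p = 0.0207) for BPQD, -0.16 ± 0.02 (adjusted p = 0.000499) for TiO2 and 0.23 ± 0.02 (adjusted p = 8.95e-05) for BPQD against TiO2. The small BPQD rise was not called without control replicate 1 or 2 or BPQD replicate 3, with adjusted p of 0.00141 to 0.0625 over all alternatives, and with the replicate number as a block it had adjusted p = 0.0553.

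EIF3M (chr11:32583798-32606264) stood at 17.8, 19.2 and 19.6 FPKM in the controls, 22.6, 26.5 and 24.2 after BPQD and 22.8, 24.5 and 24.7 after TiO2. Both exposures lay above the controls and overlapped each other, with changes of 0.35 ± 0.06 (adjusted p = 0.0029) and 0.33 ± 0.06 (adjusted p = 0.00483). EIF3E stood at 52.1, 50.5 and 51.5 FPKM in the controls, 57.8, 58.8 and 59.6 after BPQD and 58.8, 60.3 and 58.8 after TiO2. Its rises were close in size, 0.19 ± 0.02 (adjusted p = 0.00034) for BPQD and 0.20 ± 0.02 (adjusted p = 0.000327) for TiO2. EIF3H and EIF3J, the loosely bound subunit, rose by 0.36 ± 0.08 (adjusted p = 0.00792) and 0.38 ± 0.08 (adjusted p = 0.00809) after BPQD. After TiO2 their changes were 0.26 ± 0.08 (adjusted p = 0.0352) and 0.25 ± 0.08 (adjusted p = 0.0478). The TiO2 calls were weak: that of EIF3H was lost without any 1 of the 3 controls, BPQD replicate 2, or TiO2 replicate 2 or 3 (adjusted p of 0.00945 to 0.106 over all alternatives), and that of EIF3J without control replicate 3 or any 1 of the exposed libraries (0.0169 to 0.121). EIF3F, a subunit with a deubiquitinase-like fold, fell after TiO2, with 10.5, 10.7 and 10.7 FPKM in the controls, 10.3, 10.3 and 9.89 after BPQD and 9.37, 9.56 and 9.61 after TiO2. Its change was -0.15 ± 0.03 (adjusted p = 0.00364) for TiO2 and -0.06 ± 0.03 (adjusted p = 0.0896) for BPQD. EIF3K, at 41.1, 40.9 and 39.5 FPKM in the controls and 39.4, 41.2 and 42.2 after BPQD, was higher after TiO2 at 43.8, 43.7 and 44.6 (0.12 ± 0.03, adjusted p = 0.0168). That call was lost without control replicate 3 or TiO2 replicate 3, with adjusted p of 0.00825 to 0.0556 over all alternatives. EIF3D, EIF3G, EIF3I and EIF3L passed no test against control, and their changes after BPQD lay between -0.14 for EIF3G and 0.20 for EIF3L.

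EIF3C and its near-identical copy EIF3CL cannot be kept apart with confidence, since the sources used here do not say how shared fragments were assigned. EIF3C stood at 45.1, 49.1 and 47.7 FPKM in the controls, 55, 54.3 and 57 after BPQD and 51.7, 50.3 and 48 after TiO2. EIF3CL stood at 131, 117 and 121 FPKM in the controls, 117, 132 and 127 after BPQD and 127, 127 and 131 after TiO2. EIF3C was called higher after BPQD (0.23 ± 0.04, adjusted p = 0.00279), while the groups of EIF3CL overlapped. The sum of both was 176, 166 and 168 FPKM in the controls, 172, 186 and 184 after BPQD and 179, 177 and 179 after TiO2, and in the sum the BPQD libraries overlapped the controls.

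**Figure D2:**
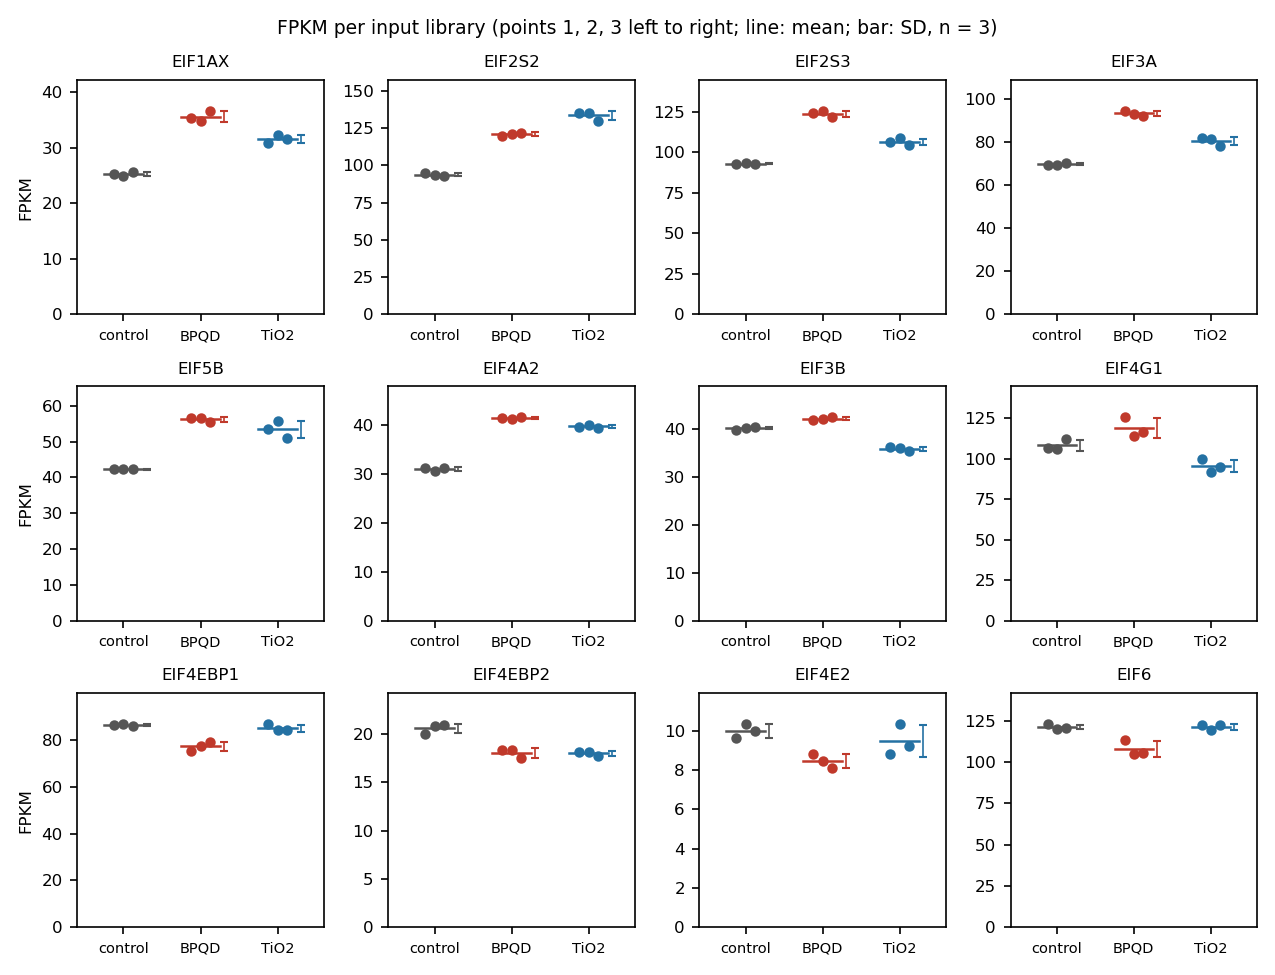
FPKM (vertical axis, from 0) of 12 initiation factors in each of the 9 input libraries, by group; points are libraries, lines the group means and bars the SD (n = 3). In EIF1AX, EIF2S3 and EIF3A the 3 groups are separate with BPQD highest, in EIF2S2 TiO2 is highest, and in EIF3B and EIF4G1 TiO2 is lowest.

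Of the 10 eIF4 factors, 5 were higher and 3 lower after BPQD, and 2 were higher and 1 lower after TiO2. The shares of all tested genes were 20.6% and 23.4% after BPQD and 17.3% and 20.5% after TiO2. With at least 10 FPKM they were 27.6% and 28.4%, and 26.3% and 24.8%. EIF4G1 (chr3:184314495-184335358), the main scaffold of eIF4F, stood at 107, 106 and 112 FPKM in the controls, 126, 114 and 117 after BPQD and 99.7, 92.1 and 95.3 after TiO2. The groups did not overlap, with TiO2 lowest and BPQD highest. The difference between the exposures was 0.31 ± 0.04 (adjusted p = 0.00132). Against control it was 0.13 ± 0.04 (adjusted p = 0.0468) for BPQD and -0.18 ± 0.04 (adjusted p = 0.0166) for TiO2. The BPQD call was lost without control replicate 1 or 2, BPQD replicate 1 or 3, or TiO2 replicate 3, with no filter on low values, and with only the 6 libraries compared (adjusted p of 0.0126 to 0.127 over all alternatives), and the TiO2 call without control replicate 3 or TiO2 replicate 2 and with quantile normalization (0.00946 to 0.0557). EIF4G2 (chr11:10797050-10808940), a related scaffold that lacks the site for eIF4E, stood at 87.3, 85.6 and 83.9 FPKM in the controls, 108, 103 and 105 after BPQD and 101, 101 and 108 after TiO2. It rose after both, by 0.29 ± 0.03 (adjusted p = 0.000298) and 0.27 ± 0.03 (adjusted p = 0.000602), and its exposed groups overlapped each other. EIF4G3, the other eIF4E-binding scaffold, stood at 19.5, 20.2 and 20.2 FPKM in the controls, 19.1, 18.2 and 18 after BPQD and 20.1, 20.1 and 20.3 after TiO2, and was lower after BPQD, with a change of -0.11 ± 0.03 (adjusted p = 0.0131). On the TPM scale that change was -0.06, with adjusted p = 0.148.

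EIF4A2 (chr3:186783205-186789897), a helicase of eIF4F, stood at 31.3, 30.6 and 31.3 FPKM in the controls, 41.6, 41.2 and 41.6 after BPQD and 39.7, 40.1 and 39.5 after TiO2. Its rise was large against its spread, 0.40 ± 0.02 (adjusted p = 7.54e-06) for BPQD and 0.35 ± 0.02 (adjusted p = 1.72e-05) for TiO2. Its paralog EIF4A1 (chr17:7572706-7579006) stood at 52.8, 84.4 and 86.9 FPKM in the controls, 81.8, 64.6 and 68.2 after BPQD and 84, 88.2 and 96.2 after TiO2, with changes of -0.03 ± 0.19 (adjusted p = 0.899) and 0.29 ± 0.19 (adjusted p = 0.268). Control replicate 1 was the lowest of all 9 libraries, and no difference was called. Without it the changes were -0.26 for BPQD (adjusted p = 0.0873) and 0.06 for TiO2 (adjusted p = 0.698), and the difference of BPQD from TiO2, -0.32 with adjusted p = 0.217 with all libraries, was then called (adjusted p = 0.0338, range over all alternatives 0.0338 to 0.417). SENP3-EIF4A1, a readthrough gene annotated over 6010 bases of EIF4A1 on the same strand, stood at 13.1, 12.8 and 10.0 FPKM in the controls, 18.3, 41 and 69.3 after BPQD and 17.8, 10.3 and 15.6 after TiO2. The readthrough gene was called higher after BPQD (1.58 ± 0.43, adjusted p = 0.0202) and had no call after TiO2 (0.24 ± 0.43, adjusted p = 0.704). The BPQD libraries low in EIF4A1 were those high in the readthrough gene, and the sum of both was 66, 97.1 and 96.9 FPKM in the controls, 100.1, 106 and 137 after BPQD and 102, 98.5 and 112 after TiO2. In the sum, which was not tested, all exposed libraries lay above the controls. EIF4A3, a helicase of the exon junction complex, rose after BPQD by 0.15 ± 0.03 (adjusted p = 0.00872), from 19.9, 19.9 and 20.2 to 22.7, 21.5 and 22.5 FPKM. After TiO2 it stood at 20.7, 20.2 and 21.7 FPKM, which overlapped the controls.

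EIF4B, which stimulates the eIF4A helicases, had 1 control library far below the others, at 104, 175 and 186 FPKM in the controls, 207, 208 and 208 after BPQD and 176, 170.0 and 172 after TiO2. All BPQD libraries lay above all others, yet the change of 0.46 ± 0.19 (adjusted p = 0.0864) did not pass. Without control replicate 1 it was 0.20 with adjusted p = 0.00259, and without control replicate 3 it was 0.62 with adjusted p = 0.0406 (range over all alternatives 0.00259 to 0.171). EIF4H, a relative of EIF4B, stood at 127, 126 and 126 FPKM in the controls, 119.9, 121 and 122 after BPQD and 127, 129.6 and 128 after TiO2. Its BPQD change was -0.06 ± 0.02 (adjusted p = 0.0152), and -0.01 on the TPM scale. It was also not called without control replicate 1 (adjusted p = 0.0502, range over all alternatives 0.0149 to 0.872).

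EIF4E (chr4:98871684-98930637), the cap-binding protein, was among the lowest members, at 2.74, 3.38 and 2.95 FPKM in the controls, 3.59, 3.57 and 3.6 after BPQD and 3.5, 3.39 and 3.45 after TiO2. Both exposed groups lay above the controls. The change was 0.19 ± 0.06 (adjusted p = 0.0256) for BPQD and 0.15 ± 0.06 (adjusted p = 0.0747) for TiO2, and the BPQD call was lost without control replicate 1 or 3 or any 1 of the BPQD libraries (adjusted p of 0.00285 to 0.0728 over all alternatives). EIF4EP2, a pseudogene copy of EIF4E, was listed higher than EIF4E itself, at 14.8, 13.2 and 12.6 FPKM in the controls, 14.7, 16.8 and 17.4 after BPQD and 16.3, 17.2 and 17 after TiO2. The sum of both stood at 17.5, 16.6 and 15.5 FPKM in the controls, 18.3, 20.4 and 21 after BPQD and 19.8, 20.6 and 20.4 after TiO2, again with no overlap between controls and exposed libraries. The cap-binding relative EIF4E2, a translation repressor, stood at 9.63, 10.4 and 9.99 FPKM in the controls, 8.81, 8.47 and 8.1 after BPQD and 8.82, 10.4 and 9.25 after TiO2. It fell after BPQD, with a change of -0.22 ± 0.06 (adjusted p = 0.0187), the largest called fall of any member in that comparison, and was not called on the TPM scale or without control replicate 2 or BPQD replicate 3 (adjusted p of 0.00648 to 0.0621 over all alternatives).

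Of the 3 genes for proteins that bind eIF4E, EIF4EBP1 fell after BPQD and EIF4EBP2 after both exposures. EIF4EBP1 encodes 4E-BP1, the repressor that mTORC1 inactivates. It stood at 86.2, 86.8 and 85.9 FPKM in the controls, 75.1, 77.3 and 78.9 after BPQD and 86.5, 84 and 84.1 after TiO2. The BPQD libraries lay below all others, with a change of -0.16 ± 0.02 (adjusted p = 0.00098) against control and -0.14 ± 0.02 (adjusted p = 0.00266) against TiO2, while the TiO2 change was -0.02 ± 0.02 (adjusted p = 0.437). EIF4EBP2 (chr10:70404145-70428618), its paralog, stood at 20.0, 20.8 and 20.9 FPKM in the controls, 18.3, 18.3 and 17.4 after BPQD and 18.1, 18.1 and 17.7 after TiO2. Both exposed groups lay below the controls and overlapped each other. The change was -0.18 ± 0.03 (adjusted p = 0.00171) for BPQD and -0.18 ± 0.03 (adjusted p = 0.0021) for TiO2. EIF4ENIF1 (4E-T, which carries eIF4E into the nucleus and into P-bodies) passed no test and lies within the table's interval for DRG1 on the opposite strand, at 3.34 ± 0.196, 3.29 ± 0.108 and 2.91 ± 0.251 FPKM (SD, n = 3) in controls, BPQD and TiO2.

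Among the factors of subunit joining, EIF5B rose after both exposures and EIF6 fell after BPQD. EIF5B (chr2:99337371-99401326), the GTPase that joins the ribosomal subunits, stood at 42.3, 42.3 and 42.5 FPKM in the controls, 56.5, 56.6 and 55.4 after BPQD and 53.5, 55.8 and 51.1 after TiO2. Both exposures lay above the controls, with changes of 0.40 ± 0.03 (adjusted p = 6.33e-05) and 0.33 ± 0.03 (adjusted p = 0.000198). EIF6 (chr20:35278911-35284985), which keeps the large subunit from joining too early, stood at 123, 120.2 and 121 FPKM in the controls, 113, 105 and 106 after BPQD and 123, 119 and 122 after TiO2. It was lower after BPQD than in either other group, with a change of -0.17 ± 0.03 (adjusted p = 0.00366) against control and -0.17 ± 0.03 (adjusted p = 0.00418) against TiO2. EIF5, which triggers GTP hydrolysis by eIF2, stood at 12.9, 10.6 and 12.4 FPKM in the controls, 12.7, 14.2 and 14.3 after BPQD and 16, 16.4 and 13 after TiO2. Its TiO2 change was 0.31 ± 0.10 (adjusted p = 0.0459), a call lost without any 1 of the libraries except TiO2 replicate 3 (adjusted p of 0.0133 to 0.136 over all alternatives). EIF5A, the hypusine-bearing factor that helps ribosomes past difficult peptide bonds, was the most abundant member at 212 ± 21.1, 209 ± 8.43 and 206 ± 7.5 FPKM (SD, n = 3) in controls, BPQD and TiO2, and passed no test. Its near-identical copy EIF5AL1 stood at 7.64, 7.38 and 7.5 FPKM in the controls, 6.67, 6.84 and 7.09 after BPQD and 6.59, 6.36 and 6.95 after TiO2. EIF5AL1 fell after both, with changes of -0.11 ± 0.04 (adjusted p = 0.0411) and -0.16 ± 0.04 (adjusted p = 0.0133), and the BPQD call was lost without any 1 of the controls, BPQD replicate 1 or 2, or TiO2 replicate 1 (adjusted p of 0.0305 to 0.198 over all alternatives). That call was also lost on the TPM scale (-0.07, adjusted p = 0.198), with median centring, quantile normalization, the replicate number as a block and no filter on low values.

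Pseudogene copies of several members, named after their values were seen, were listed in the table too, and how shared fragments were divided among them is not known. EIF1AXP1 stood at 29, 25.7 and 23.9 FPKM in the controls, 34.9, 37 and 36.2 after BPQD and 30.4, 29.9 and 36 after TiO2, close to EIF1AX in each group, and it was called higher after both (0.45 ± 0.09 (adjusted p = 0.00425) and 0.28 ± 0.09 (adjusted p = 0.0362)). EIF2S2P4 was also called higher after both, with changes of 0.23 ± 0.06 (adjusted p = 0.0161) and 0.38 ± 0.06 (adjusted p = 0.00193). All 3 listed copies of EIF4B were called higher after BPQD: EIF4BP3 by 0.42 ± 0.13 (adjusted p = 0.0318), EIF4BP6 by 0.29 ± 0.09 (adjusted p = 0.029) and EIF4BP7 by 0.23 ± 0.05 (adjusted p = 0.00939). EIF4A1P10 was called higher after both exposures (0.24 and 0.19, adjusted p = 0.00132 and 0.00502), where EIF4A1 had no call. EIF3FP3, at 13.5 ± 0.483 FPKM in the controls (SD, n = 3), was listed above EIF3F, and EIF3FP3, EIF4HP1 and EIF4HP2 passed no test against control. EIF5AP4 was called lower after both (-0.26 and -0.23, adjusted p = 0.03 and 0.0493), as EIF5AL1 was. Besides these copies, 38 of the 51 members overlap another annotated gene, and for 20 of them that gene had a mean of 1 FPKM or more.

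**Figure D3:**
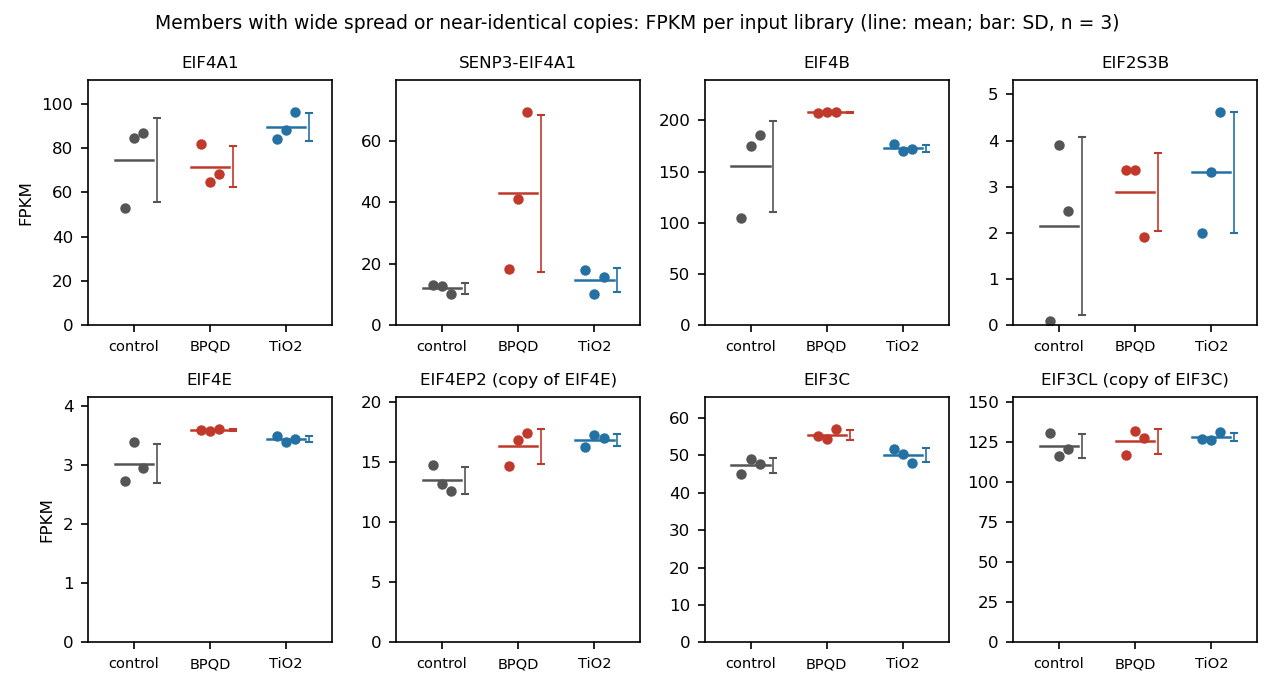
FPKM (vertical axis, from 0) in each input library for members with a wide spread or a near-identical copy, with SENP3-EIF4A1 and EIF4EP2 beside the member they overlap or resemble; lines are group means and bars the SD (n = 3). EIF4A1 and EIF4B each have 1 low control library, and EIF4EP2 lies above EIF4E in all 9 libraries.

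Directly against each other, 10 members were higher after BPQD than after TiO2 and 9 were lower, while 19% of all tested genes were called higher and 18.6% lower. All 3 BPQD libraries lay above the TiO2 libraries for 16 members (26.2% of all tested genes) and below for 11 (24.9%). With values rescaled to TPM the split was 13 higher and 6 lower, and with quantile normalization 13 and 7. The count of higher members fell to 5 without BPQD replicate 1 and to 6 without TiO2 replicate 1. The members with the largest called differences were EIF4G1, EIF3B, EIF2S3 and EIF3A, higher after BPQD, and EIF2AK3, EIF1AD, EIF6 and EIF2S2, higher after TiO2. The call for EIF2AK3 (-0.25 ± 0.07, adjusted p = 0.0292) was lost without BPQD replicate 1 or 3 or TiO2 replicate 1 or 2, with adjusted p of 0.0132 to 0.0904 over all alternatives.

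The 10 members with the pyrimidine start shown at the outset were set beside the 32 with a promoter entry and no such start. After BPQD 4 of the 10 were higher (EIF2A, EIF2S3, EIF3M and EIF4A2) and 0 were lower by limma (1, EIF3F, at an unadjusted p under 0.05), with a median log2 fold change of 0.38, and of the 32 others 13 were higher and 7 lower, with a median of 0.01. After TiO2 4 of the 10 were higher (EIF2S3, EIF3K, EIF3M and EIF4A2) and 1, EIF3F, was lower, with a median of 0.17, against 9 higher and 5 lower of the 32 and a median of 0.04. Counted by gene ID (8527 for the 8525 symbols), 644 tested genes had this start, members included, and of them 21.4% were higher and 27.0% lower after BPQD, while of the 7883 without it 21.8% were higher and 24.4% lower. The corresponding shares after TiO2 were 17.7% and 25.8% with the start, and 19.4% and 20.3% without it. EIF2A, EIF2S3B and EIF4B, each lowest in control replicate 1, are among the 10. Without that library the median of the 10 was 0.14 after BPQD and 0.03 after TiO2, and that of the 32 was 0.05 and 0.04. EIF4B then stood at 0.20 after BPQD and EIF2S3B at -0.11. The median of the 32 after BPQD lay between 0.01 and 0.08 over all alternatives.

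Genes of the same pathway outside the EIF names were counted from lists chosen for their roles, with earlier results of these data known. Of 9 genes listed for elongation, 1 was higher and 5 lower after BPQD, and 2 were higher and 4 lower after TiO2, with medians of -0.17 and -0.24. The lower genes include EEF2K, a kinase that inhibits EEF2 and is not itself an elongation factor. EEF2K changed by -0.22 ± 0.03 (adjusted p = 0.000383) after BPQD and -0.42 ± 0.03 (adjusted p = 3.06e-05) after TiO2. EEF2, the translocase of elongation, changed by -0.39 ± 0.01 (adjusted p = 3.39e-06) after TiO2, and EEF1A1, which delivers aminoacyl-tRNA, by 0.27 ± 0.01 (adjusted p = 5.87e-06) after BPQD. Of 7 termination and recycling factors, 4 were higher after each exposure and 0 were lower by limma (0 also at an unadjusted p under 0.05), with medians of 0.16 and 0.24. ABCE1, the ATPase that splits ribosomes after termination, rose by 0.51 ± 0.04 (adjusted p = 4.58e-05) after BPQD and 0.36 ± 0.04 (adjusted p = 0.000266) after TiO2, and ETF1, the release factor, by 0.26 ± 0.03 (adjusted p = 0.000601) and 0.29 ± 0.03 (adjusted p = 0.000522). Of 21 initiation helpers such as poly(A)-binding proteins and eIF4E kinases, 10 were higher and 2 lower after BPQD, and 9 were higher and 2 lower after TiO2. The lower pair after BPQD were MKNK1 and MKNK2, the kinases that phosphorylate eIF4E, with changes of -0.36 ± 0.07 (adjusted p = 0.00434) and -0.31 ± 0.11 (adjusted p = 0.044). After TiO2 MKNK1 was called lower too (-0.21 ± 0.07, adjusted p = 0.0463), and MKNK2 had no call (-0.24 ± 0.11, adjusted p = 0.114). PPP1R15A, the stress-induced subunit of the eIF2α phosphatase, rose by 0.43 ± 0.03 (adjusted p = 4.4e-05) after TiO2, and SBDS, which with EFL1 removes eIF6 from the large subunit, by 0.47 ± 0.05 (adjusted p = 0.000261). After BPQD PPP1R15A rose by 0.22 ± 0.03 (adjusted p = 0.000617) and SBDS by 0.19 ± 0.05 (adjusted p = 0.0147).

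Of 23 mTORC1 signalling genes, 1 was higher and 7 lower after BPQD, and 5 were higher and 5 lower after TiO2. RPS6KB2, an S6 kinase, fell after BPQD (-0.39 ± 0.04, adjusted p = 0.000122), as did DDIT4, an inhibitor of mTORC1 (-0.32 ± 0.02, adjusted p = 5.36e-05), so the genes that fell held both effectors and inhibitors. RRAGC, a GTPase that recruits mTORC1 to lysosomes, rose by 0.59 ± 0.05 (adjusted p = 8.84e-05) after TiO2. Of 9 genes of the integrated stress response, which are induced when eIF2α is phosphorylated, 3 were higher and 2 lower after BPQD, and 2 were higher and 1 lower after TiO2. ASNS, asparagine synthetase, rose after BPQD (0.57 ± 0.10, adjusted p = 0.00286) and had no call after TiO2 (0.02, adjusted p = 0.911). CEBPB fell after BPQD (-0.42 ± 0.04, adjusted p = 9.7e-05) and rose after TiO2 (0.12 ± 0.04, adjusted p = 0.0323). TRIB3 rose after BPQD (0.27 ± 0.05, adjusted p = 0.0037) and after TiO2 (0.27 ± 0.05, adjusted p = 0.00437). SESN2 fell after BPQD (-0.36 ± 0.06, adjusted p = 0.00176) and after TiO2 (-0.33 ± 0.06, adjusted p = 0.00303). ATF4 rose after BPQD (0.36 ± 0.02, adjusted p = 2.15e-05) and had no call after TiO2 (-0.05, adjusted p = 0.106). Of 9 mitochondrial translation factors, 5 were higher and 0 lower after BPQD by limma (0 also at an unadjusted p under 0.05), and 6 were higher and 1 lower after TiO2. MTIF2, the mitochondrial initiation factor that delivers initiator tRNA, rose by 0.58 ± 0.03 (adjusted p = 1.75e-05) after BPQD and 0.37 ± 0.03 (adjusted p = 0.000161) after TiO2. These counts stand beside the shares of all tested genes given above, and no list was tested as a set.

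The m6A peaks were read from the authors' deposited tables, 1 for each exposure against control, which give a log2 fold change of m6A enrichment and a p-value for each peak. These values are the authors' own. The sources used here do not give how peaks were called, whether replicates were pooled or how the input level entered the enrichment. In the authors' deposited table for BPQD, 50 peaks lay in 30 of the 51 genes, of which 12 were higher and 25 lower at the authors' p under 0.05. There, 37.7% of all 14902 peaks were higher and 27.1% lower, but in genes averaging 10 FPKM or more 32.3% were higher and 48.1% lower. The authors' deposited table for TiO2 held 32 peaks in 22 of the genes, 5 higher and 19 lower, against 40.3% and 23.8% of all 12886 peaks and 35.8% and 41.5% of those in genes with at least 10 FPKM. Peaks in both tables were found for 19 genes. No peak was listed in either for 18, among them EIF2S3, EIF3E, EIF3M, EIF4A1, EIF4B, EIF4G2 and EIF4EBP2.

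By the authors' annotation, every called peak in a 5′ UTR was lower: 10 of 10 after BPQD and 6 of 6 after TiO2, in the authors' deposited tables. Among all called 5′ UTR peaks 54.4% were lower after BPQD and 34.3% after TiO2, and in genes with at least 10 FPKM 70.2% and 49.7%. Called exon peaks of the members were also lower in 7 of 7 and 6 of 6 cases, where 34.1% and 35% of all called exon peaks were lower (57.7% and 55.6% in genes with at least 10 FPKM). At the authors' FDR under 0.05, the exon peaks called were 6 after BPQD and 3 after TiO2 and the 5′ UTR peaks 8 and 6, and each of these was lower. In 3′ UTRs the members' peaks went both ways, 12 higher and 8 lower after BPQD and 5 higher and 7 lower after TiO2, with 39.3% and 39.4% lower among all called 3′ UTR peaks (53.7% and 55.6% in genes with at least 10 FPKM). Several peaks share a gene and are not independent, and no test of these shares was made.

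Of the 10 genes with a lower 5′ UTR peak after BPQD, 6 had higher RNA in the input libraries, namely EIF1AX, EIF2S2, EIF3B, EIF3C, EIF3J and EIF4A3. EIF4EBP1 was lower in both measures, and EIF2AK2, EIF4ENIF1 and EIF5A had no expression call. Of all 51 members 21 were higher after BPQD, among them EIF2B3 and EIF2S1, whose 5′ UTR peaks were not called. After TiO2, EIF2S2 alone of the genes with a lower 5′ UTR peak had higher RNA. There EIF3B had lower RNA, and EIF1AD, EIF3C and EIF4EBP1 had no expression call. For neither exposure was the share with higher RNA counted over all genes with a lower 5′ UTR peak. Whether the members differ from other genes in this is therefore not known. For EIF2S2 the authors' deposited tables list 1 peak over the 5′ UTR (chr20:34105455-34112243) with a log2 enrichment change of -0.28 (p = 6.31e-14) after BPQD and -0.15 (p = 1.48e-05) after TiO2. That interval is 6789 bases wide and can therefore include introns. RALY, annotated over 20000 bases of EIF2S2 on the opposite strand, also reaches into it, and whether the strand was used is not known. EIF5A had a 5′ UTR peak (chr17:7307388-7308127) at -0.27 (p = 7.94e-17) after BPQD in the authors' deposited table. For EIF4EBP1 the 5′ UTR peak was lower after both exposures, at -0.45 (p = 2.57e-06) and -0.48 (p = 2.34e-06), and so was the 3′ UTR peak, at -0.20 (p = 3.63e-09) and -0.31 (p = 1.58e-23), in the authors' deposited tables. EIF3A had a lower peak in its exon 12 of 22 in both, -0.36 (p = 7.94e-11) after BPQD and -0.19 (p = 3.47e-05) after TiO2, in the authors' deposited tables.

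The largest falls were listed for EIF3C, whose peak over the 5′ UTR (chr16:28688768-28720663, 31896 bases wide) had a log2 change of -2.42 after BPQD in the authors' deposited table, with a p listed as 0. After TiO2 the region was listed as 2 peaks in the authors' deposited table, at -3.71 (p = 3.98e-24) and -1.44 (p = 1e-112). Since EIF3C and EIF3CL are near-identical, the peak of one cannot be told apart from that of the other.

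Peaks called higher were annotated to 3′ UTRs only, in the authors' deposited tables. EIF2B1 had a 3′ UTR peak (chr12:123619447-123620584) at 0.17 (p = 7.41e-08) after BPQD and 0.21 (p = 3.16e-11) after TiO2, in the authors' deposited tables. EIF3J carried peaks in opposite directions after BPQD in the authors' deposited table: -0.27 (p = 3.16e-14) over the 5′ UTR and 0.27 (p = 2.4e-10) and 0.47 (p = 6.76e-05) in the 3′ UTR. The first of these intervals is 17497 bases wide and can therefore include introns. After TiO2 the peak at chr15:44561542-44561959 stood at 0.21 (p = 2.75e-07) in the authors' deposited table. EIF2A, the member with the largest called RNA rise after BPQD, had a peak annotated to the 3′ UTR at 0.44 (p = 3.98e-21) in the authors' deposited table. That interval (chr3:150568008-150572282) is 4275 bases wide and ends well before the end of the gene's interval, at 150586016. EIF4G1 was listed for TiO2 only, with 3′ UTR peaks at 0.09 and 0.12 (p = 1.29e-09 and 1e-08) in the authors' deposited table, while its RNA was lower. The first of these peaks (chr3:184321285-184322093) also lies well before the end of the gene's interval, at 184335358. At a log2 change of at least 1 in either direction, few calls are left: 1 higher (EIF2D, 3.54, in a peak 90 bases wide) and 1 lower after BPQD, and 0 higher and 2 lower after TiO2, all of the lower ones in EIF3C.

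**Figure D4:**
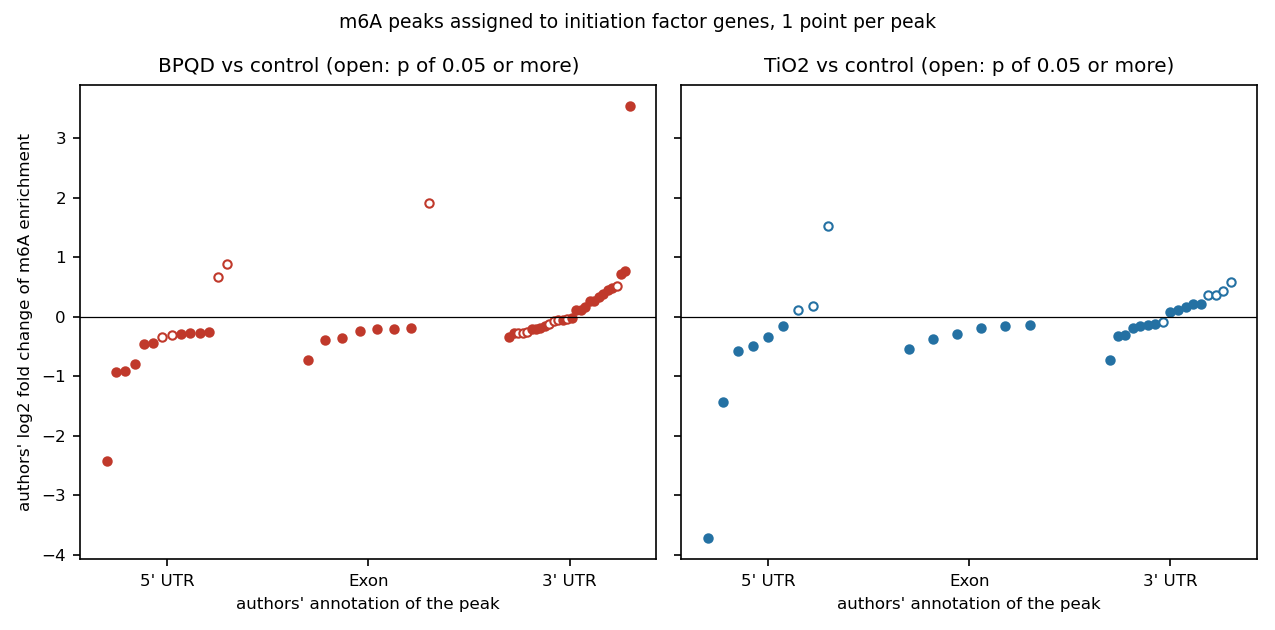
Log2 change of m6A enrichment (vertical axis) in the authors' deposited tables for each peak in an initiation factor gene, by the authors' annotation of the peak (horizontal axis, ordered by value within a region), after BPQD (left, 50 peaks) and TiO2 (right, 32 peaks); filled points had the authors' p under 0.05. All filled points over 5′ UTRs and exons lie below 0, and those over 3′ UTRs lie on both sides.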

How the data were processed

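RNA levels came from 9 input libraries, 3 per group, and m6A from tables made with the 9 immunoprecipitated libraries. FPKM per gene was made by the authors, per the file headers. The submitters' processing notes name HISAT2, StringTie 1.3.0 and the mouse build mm10, without roles, but gene IDs were human, and all 51 members lay at their RefSeq GRCh38.p14 gene, so coordinates are read as GRCh38. For each peak the authors deposited a p-value, a log10 FDR (used as a score) and the log2 fold change of its m6A enrichment, per the file headers, and repeated entries (1 and 5) were dropped. The 12 other columns of FPKM per library in those tables were not used. Depth is unknown, so precision rests on the 3 libraries per group.

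Expression was tested with limma 3.58.1 (R 4.3.3) on log2(FPKM + 1) over the 12224 genes averaging 1 FPKM or more, fitting 3 groups to all 9 libraries with a variance trend, and two-sided p-values were adjusted by Benjamini-Hochberg, with a threshold of 0.05. The procedure was tested on simulated data. Counts, sequences and figures used Python 3.11.15 with pandas 2.3.3, numpy 2.4.6 and matplotlib 3.10.9. Alternatives were a pseudocount of 0.1, no filter on low values, TPM, median centring, quantile normalization, 6 libraries, a replicate block and each library left out, and for peaks a p of 0.01, the authors' FDR and a minimum log2 change of 1. The members, their roles and all gene lists were chosen with earlier results of these data known. Genes given by library were, by rule, the 5 largest called rises and falls in each comparison, both 4E-binding proteins, the 4 eIF2 kinases, EIF4E, EIF4A1, EIF4A2, EIF4G1 and EIF4G2, to which other members were added to account for all 51, and for each other list up to 3 called genes per comparison, of which some are printed. Named peaks were among the 6 with the smallest p in each direction and table, and those of EIF2D and EIF4EBP1 after BPQD and of EIF2S2 and EIF3A after TiO2 were additions made with their values known.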

Additional observations from a re-analysis of the deposited data

Results flagged for a closer look

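Against the shared controls, 2 members were called higher after BPQD and lower after TiO2. The difference between the exposures is then the sum of both called changes, so its limma p is given as a value and adds no support. For EIF3B the log2 fold change of BPQD against TiO2 was 0.23 with adjusted p = 8.95e-05, and all 3 BPQD libraries lay above and all 3 TiO2 libraries below the controls. For EIF4G1 the log2 fold change of BPQD against TiO2 was 0.31 with adjusted p = 0.00132, again with all libraries of each exposure on its own side of the controls. For both genes the change from control after BPQD was the smaller part, and its call was lost when some single libraries were left out. The TiO2 call of EIF4G1 was lost too, without control replicate 3 (adjusted p = 0.0555), without TiO2 replicate 2 (0.0557) and with quantile normalization (0.0505), in a range of 0.00946 to 0.0557 over all alternatives, and that of EIF3B was kept in all 16.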

How the results depend on the processing

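Of the 30, 23 and 19 calls on members for BPQD, for TiO2 (each against control) and between the exposures, 20, 16 and 10 were kept under all 16 alternatives run. Of 2448 member values under alternatives, 2255 kept their side of the threshold, 81 of these with a change of sign and no call under either setting, 153 lost a call, 38 gained one and 2 changed sign with a call. Those 2 were EIF3I in BPQD against control, 0.11 with quantile normalization (adjusted p = 0.0293), and EIF1 in TiO2 against control, 0.11 without control replicate 2 (adjusted p = 0.0245) in a range of -0.084 to 0.11 over single libraries left out, and both had been near 0 with no call. On the TPM scale 3 members were lower after BPQD, not 9, since the FPKM sums were lower in that group. Median centring and quantile normalization each cost the calls of EIF3J after TiO2 and of EIF4H and EIF5AL1 after BPQD. Quantile normalization also cost those of EIF3K and EIF4G1 after TiO2. Without the filter on low values, EIF4E, EIF4G1 and EIF5AL1 lost their BPQD calls. EIF2AK3, EIF2B5, EIF3H, EIF3J and EIF5 then lost their TiO2 calls. Leaving out single libraries gave 18 to 21 higher and 7 to 9 lower members for BPQD, 12 to 17 and 4 to 6 for TiO2, and 5 to 10 and 6 to 10 for BPQD against TiO2. With a minimum absolute log2 change of 1, called peaks numbered 1 higher and 1 lower for BPQD and 0 higher and 2 lower for TiO2.

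The replicate numbers did not pair the libraries: deviations from group means correlated at -0.083 to 0.073 for the 9 pairs with the same number and at -0.079 to 0.084 for the 18 others. With the replicate block, members numbered 20 higher and 8 lower for BPQD, 14 and 6 for TiO2, and 8 and 8 for BPQD against TiO2.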
